A study of Mus musculus with 12 samples.

Results

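The 45 genes described here encode the DNA replication machinery and were chosen by symbol from the 14852 genes of the expression table. Earlier results of these data were known when the genes were chosen. They comprise 6 genes of origin licensing, 12 of the replicative helicase, 9 of the polymerases and primase, 9 of the sliding clamp, its loader and the single-strand binding protein, 2 of Okazaki fragment maturation, 5 of nucleotide supply and 2 of maintenance DNA methylation. All 45 passed the filter on low values, and 44 of them were at or above 1 FPKM (fragments per kilobase of transcript, scaled by the library total) in every input library, the exception being Rpa3 in 1 control library. RNA came from ID8, a line of mouse ovarian surface epithelial cells that forms ovarian tumours, either treated with cisplatin or left as controls. Cisplatin is a platinum compound that crosslinks DNA, and the sources used here give neither its dose nor how long cells were exposed. Each RNA was divided into an input part and a part pulled down by an antibody to N4-acetylcytidine (ac4C), an acetylated RNA base, which gave 3 cisplatin IP, 3 cisplatin input, 3 control IP and 3 control input libraries. All groups share the single cell line, and nothing in the labels says that replicates came from separate cultures, so the p-values reflect only how these libraries vary, possibly for technical reasons.

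A replication origin is licensed when the origin recognition complex, with Cdc6 and Cdt1, loads the ring-shaped MCM helicase onto DNA in G1 phase. In S phase the loaded ring is joined by Cdc45 and the GINS complex and unwinds the duplex, polymerase alpha-primase lays down primers, and polymerases delta and epsilon extend them while held on DNA by the PCNA clamp. Many of these genes are transcribed around the G1 to S transition under E2F factors. Cisplatin adducts block replication forks, and proliferating tumour cells such as ovarian cancer lines carry abundant replication RNA.

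The input libraries held 24290219, 30159427 and 22201704 fragments in listed genes for cisplatin replicates 1, 2 and 3, and 21583201, 21900044 and 20682920 for control replicates 1, 2 and 3. Within a group, Pearson r between libraries was 0.989 to 0.996 across genes, and cisplatin libraries differed among themselves more than control libraries did, with a chi-square per gene of 7.50 to 15.4 against 2.33 to 3.08. Of 8 markers of ovarian surface epithelium and mesothelium, all were listed, with a summed level of 2921 to 3259 FPKM in cisplatin and 2066 to 2098 FPKM in control libraries. Krt8, Krt18, Krt19 and Msln were higher in cisplatin libraries. Wt1 was lower there, at 12.4 against 45.1 FPKM, as were Upk3b and Lrrn4, and Krt7 was near 0 throughout. None of 6 immune markers was in the table, and of 4 endothelial markers only Tek was, at 2.55 to 2.81 FPKM in cisplatin and 0.72 to 0.93 FPKM in control libraries. The part of these marker differences in the results below was not tested. In such bulk RNA, a change in the share of cells that are replicating and a change in the RNA per cell cannot be told apart.

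Most replication genes had more RNA in cisplatin-treated than in control cells. Of the 45, 36 rose, 5 fell (Rfc3, Rfc2, Prim2, Pola1 and Rfc4) and 4 did not pass the test (Gins1, Pole, Rfc5 and Tk1), at an adjusted p of 0.05 in limma fitted on log2(FPKM + 1) over all 11449 tested genes. Among all tested genes 40.1% rose and 41.1% fell, so a call in some direction was common in this comparison. The median log2 change of the 45 was 0.57, against -0.003 over all tested genes. Values of the cisplatin and control libraries did not overlap for 42 of the 45, 37 higher and 5 lower, where 84.2% of all tested genes did not overlap. The authors' deposited table, in which 77.8% of its genes passed 0.05, called 41 of the 45, 36 higher and 5 lower, each in the direction found here.

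The rises were moderate. On the ratio of mean FPKM, 7 genes were at least 2-fold higher with cisplatin (Gins3, Pold1, Orc1, Rrm2, Rpa3, Tyms and Cdt1), 15 rose by 1.5 to 2-fold and 14 rose by less than 1.5-fold. Of all tested genes, 14.7% were at least 2-fold higher. The genes were well expressed before treatment, with a median of 18.9 FPKM in control libraries against 6.58 FPKM for all tested genes, and 28 of the 45 were at 10 FPKM or more there. By role, the median log2 change was 0.71 for licensing, 0.63 for the helicase, 0.44 for nucleotide supply, 0.25 for polymerases and primase and 0.15 for the clamp, loader and single-strand binding group. These are descriptions of small groups of genes, and the differences between roles were not tested. The counts by role that follow stand beside shares of 40.1% higher and 41.1% lower among all tested genes.

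**Figure D1:**
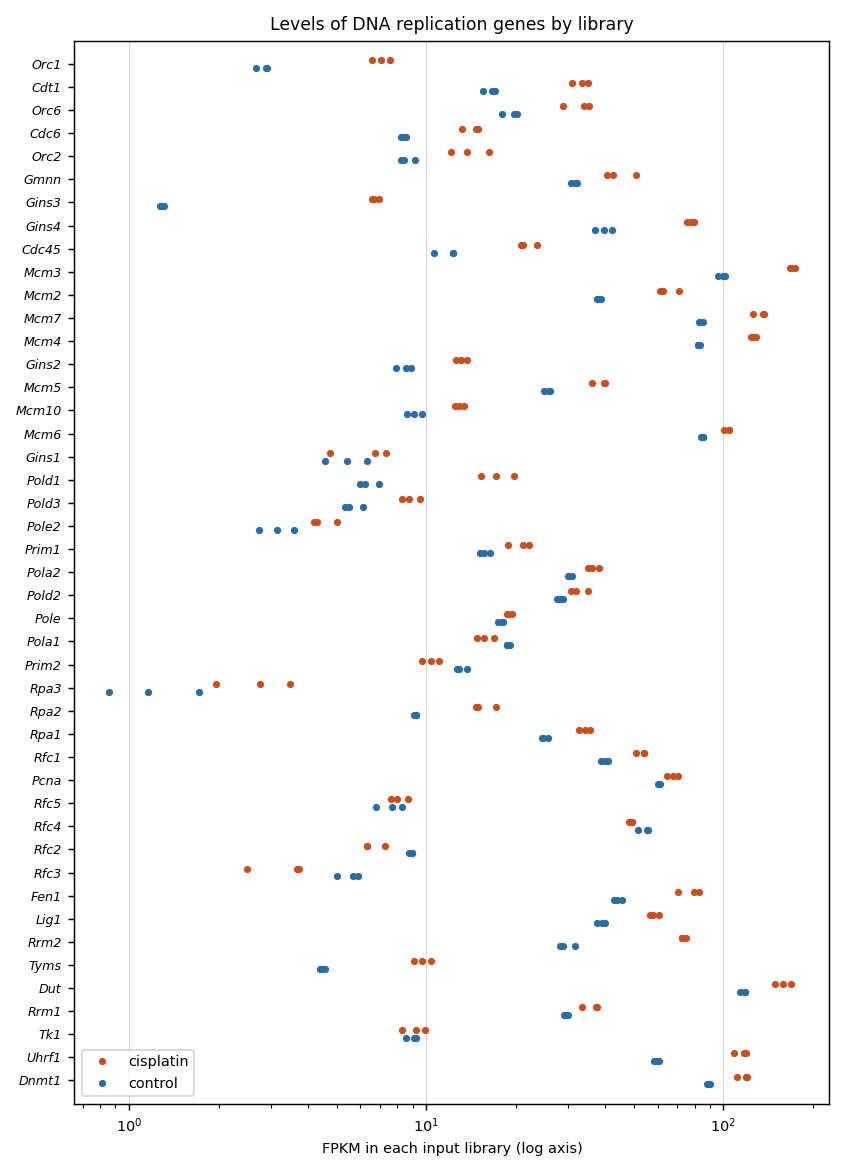
Level of each replication gene in the 3 cisplatin (red) and 3 control (blue) input libraries, in FPKM on a log axis, 1 row per gene ordered by role and then by change. The cisplatin points lie to the right of the control points for 37 genes and to the left for 5, and the 2 groups overlap for Gins1, Rfc5 and Tk1.

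The promoters of these genes were read for E2F words because several groups of genes moved together. Windows from 250 bases before to 50 after the annotated start were present in the RefSeq table of GRCm38.p6 for 37 of the 45 genes, as 46 windows. The words searched on both strands were TTTCCCGC, TTTCGCGC, TTTGCCGC and TTTGGCGC, which can overlap each other on opposite strands. A word was found in 16 of the 46 windows (34.8%), against 4.28% of the windows of tested genes and 2.26% of all windows. The 5 windows below are those of the genes with the largest rise in the helicase, polymerase and licensing groups (Gins3, Pold1 and Orc1), of Mcm6, which held the most words, and of Rfc3, which fell the most. Each is printed 5′ to 3′ on the strand of its gene, with E2F words in capitals.
Gins3: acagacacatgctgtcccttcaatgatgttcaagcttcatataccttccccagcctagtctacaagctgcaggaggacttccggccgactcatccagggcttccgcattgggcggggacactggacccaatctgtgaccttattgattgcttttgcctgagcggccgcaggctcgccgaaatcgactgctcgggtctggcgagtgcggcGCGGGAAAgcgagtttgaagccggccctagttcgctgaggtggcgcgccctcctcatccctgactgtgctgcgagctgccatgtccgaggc
Pold1: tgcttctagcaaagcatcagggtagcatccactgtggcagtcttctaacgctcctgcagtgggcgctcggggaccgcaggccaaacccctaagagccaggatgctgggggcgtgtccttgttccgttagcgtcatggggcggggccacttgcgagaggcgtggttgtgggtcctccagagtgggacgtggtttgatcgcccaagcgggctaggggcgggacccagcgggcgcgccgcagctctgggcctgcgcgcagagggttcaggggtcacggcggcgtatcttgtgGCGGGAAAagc
Orc1: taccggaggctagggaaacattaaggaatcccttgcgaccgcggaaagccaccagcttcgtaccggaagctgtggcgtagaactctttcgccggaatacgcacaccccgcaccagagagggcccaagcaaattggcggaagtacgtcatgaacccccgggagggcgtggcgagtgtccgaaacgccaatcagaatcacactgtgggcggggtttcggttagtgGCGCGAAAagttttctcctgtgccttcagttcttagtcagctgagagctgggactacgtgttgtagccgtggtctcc
Mcm6: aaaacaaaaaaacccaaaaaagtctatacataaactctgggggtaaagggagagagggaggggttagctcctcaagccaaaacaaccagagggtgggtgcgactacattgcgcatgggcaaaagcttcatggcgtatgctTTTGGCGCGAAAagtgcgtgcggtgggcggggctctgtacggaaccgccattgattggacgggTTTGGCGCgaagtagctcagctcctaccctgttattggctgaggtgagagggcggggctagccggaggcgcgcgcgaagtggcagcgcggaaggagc
Rfc3: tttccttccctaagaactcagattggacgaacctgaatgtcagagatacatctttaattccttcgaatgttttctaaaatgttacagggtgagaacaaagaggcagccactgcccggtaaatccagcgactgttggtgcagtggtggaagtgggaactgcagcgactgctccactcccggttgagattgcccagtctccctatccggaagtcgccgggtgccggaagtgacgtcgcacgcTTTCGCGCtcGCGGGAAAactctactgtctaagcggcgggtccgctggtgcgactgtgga
The Gins3 window lies at chr8:95633309-95633608 on the plus strand, that of Pold1 at chr7:44548766-44549065 on the minus strand, and that of Orc1 at chr4:108579204-108579503 on the plus strand. The Mcm6 window is chr1:128359656-128359955 on the minus strand and holds 3 words, of which a pair overlaps. The Rfc3 window is chr5:151651159-151651458 on the minus strand and holds 2 words side by side at the start. The word thus occurred in genes of either direction: 14 of the 32 genes with a window that rose held one, and so did 2 of the 3 that fell, Rfc3 and Pola1.

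By role, E2F words were found in 5 of 8 helicase genes with a window, 3 of 5 licensing genes, 4 of 7 polymerase and primase genes, 1 of 8 genes of the clamp, loader and single-strand binding group, 1 of 2 Okazaki genes, both methylation genes and 0 of 5 nucleotide supply genes. The 23 words in all included 14 between 100 bases before and 50 after the start, and their median distance was 27 bases before it. Of the further replication genes 11 of 36 with a window held a word (30.6%), and of the further nucleotide synthesis genes 1 of 23 (4.35%). Counted by gene in the same way, 43.2% of the replication genes and 5.19% of tested genes with a window held one. These matches describe letters in the annotated windows and say nothing of binding in ID8 cells.

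**Figure D2:**
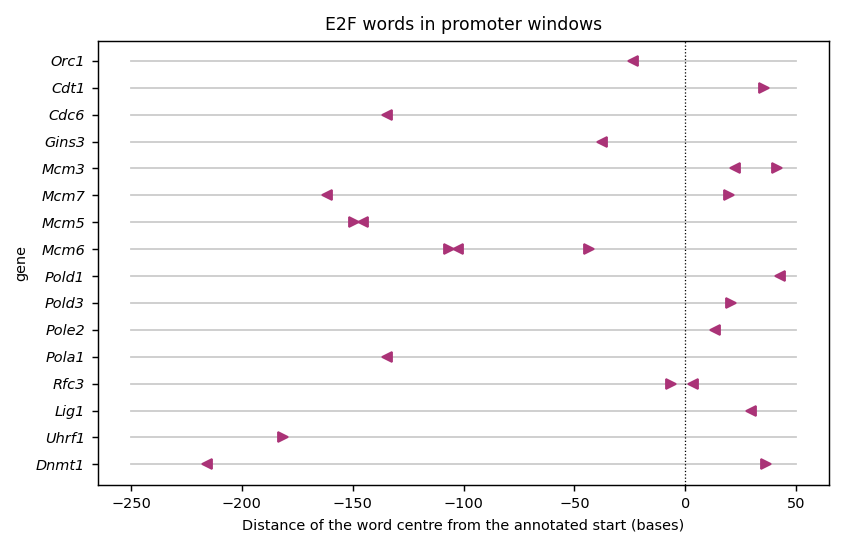
Place of each E2F word in the promoter windows of the 16 replication genes that hold one, as the distance of the word's centre from the annotated start in bases, with arrowheads giving the strand relative to the gene. Words cluster near the start in Orc1, Gins3, Pold1 and Rfc3 and lie farther upstream in Mcm5, Cdc6 and Uhrf1.

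Licensing genes rose as a group: 6 of 6 passed the test, with a median log2 change of 0.71. Their summed level was 146 ± 8.73 FPKM in cisplatin and 87.1 ± 2.94 FPKM in control libraries (mean ± SD, n = 3 each, as in all levels that follow), a ratio of 1.68. Orc1, the largest subunit of the origin recognition complex and the one whose level cycles in mammalian cells, had 6.58, 7.06 and 7.56 FPKM in cisplatin libraries and 2.89, 2.67 and 2.92 FPKM in control libraries. Every cisplatin library was thus above every control library, and its log2 change was 1.07 ± 0.06 (SE, adjusted p = 3.47e-06, limma). Cdt1, which brings the MCM ring to the origin, had 33.3, 35.1 and 31.0 FPKM with cisplatin against 15.6, 17.1 and 16.7 FPKM in controls, a ratio of 2.02. Gmnn encodes geminin, the protein that binds and inhibits Cdt1, and it too was higher, at 44.7 ± 5.50 FPKM with cisplatin and 31.5 ± 0.740 FPKM in controls. The ratio of Cdt1 to Gmnn RNA was 0.820, 0.824 and 0.608 in cisplatin libraries against 0.508, 0.531 and 0.528 in control libraries, so it was higher in every cisplatin library than in any control library, and closest to the controls in cisplatin replicate 3. Cdc6, the ATPase that acts with Cdt1 in loading, rose 1.70-fold, Orc6 rose 1.69-fold and Orc2 rose 1.63-fold.

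The remaining subunits of the origin recognition complex did not follow. Orc3 had 0.987, 0.624 and 1.28 FPKM with cisplatin and 2.28, 3.00 and 2.66 FPKM in controls, and it fell (log2 change -0.90 ± 0.13, adjusted p = 0.000494). Orc4 fell as well, to 1.32 ± 0.0610 FPKM with cisplatin against 2.13 ± 0.204 FPKM in controls, while Orc5 did not pass the test. Orc1, Orc2 and Orc6 thus moved opposite to Orc3 and Orc4. Taken within each library, the ratio of the highest to the lowest subunit was 36.3 ± 9.28 in cisplatin and 18.1 ± 3.24 in control libraries. By mean the lowest was Orc3 with cisplatin, at 0.964 FPKM, and Orc5 in controls, at 1.09 FPKM, so these ratios do not compare the same genes.

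Helicase genes rose nearly throughout, with 11 of 12 higher, none lower and a median log2 change of 0.63. Their RNA summed to 774 ± 20.5 FPKM with cisplatin and 490.1 ± 4.23 FPKM in controls, the largest sum of any role. All 6 subunits of the MCM2-7 ring, the motor of the helicase, rose. Mcm3 had the highest level of the 6, at 174, 167 and 169 FPKM in cisplatin libraries against 99.95, 102 and 96.0 FPKM in control libraries, a log2 change of 0.77 ± 0.03 (adjusted p = 8.92e-07). Mcm6 had the smallest rise of the ring, with 105, 105 and 100.4 FPKM against 85.4, 84.1 and 85.4 FPKM, or 1.22-fold, and did not pass with quantile normalization (adjusted p = 0.0943, against 5.2e-05 to 0.0943 over all alternatives). The subunits did not rise equally, as their log2 changes spanned a range of 0.49. The ratio of the highest subunit, Mcm3, to the lowest, Mcm5, was 4.36, 4.22 and 4.67 in cisplatin libraries and 3.82, 3.92 and 3.84 in control libraries, with no overlap of the groups. Mcm10, which helps to activate the loaded ring, rose 1.42-fold and Cdc45, the partner that completes the active helicase, rose 1.86-fold.

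The GINS complex, which joins MCM and Cdc45 in the active helicase, was far less even. Gins3 had 6.58, 6.67 and 6.93 FPKM in cisplatin libraries and 1.27, 1.31 and 1.28 FPKM in control libraries. This was the largest change of the 45 genes, 5.23-fold, and the replicates of either group differed little from each other (log2 change 1.76 ± 0.05, adjusted p = 2e-07). Gins4 rose 1.96-fold and Gins2 rose 1.56-fold. Gins1 had 7.30, 6.72 and 4.76 FPKM with cisplatin against 5.40, 4.55 and 6.31 FPKM in controls, so its groups overlapped and it did not pass (95% interval of the log2 change -0.20 to 0.54). It passed when cisplatin replicate 3, its lowest cisplatin library, was left out (log2 change 0.33, adjusted p = 0.0432, against 0.0432 to 0.737 over all alternatives). Gins3 had the lowest FPKM of the subunits in controls, and the ratio of Gins4 to Gins3 was 11.5 ± 0.580 in cisplatin and 30.8 ± 1.62 in control libraries.

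**Figure D3:**
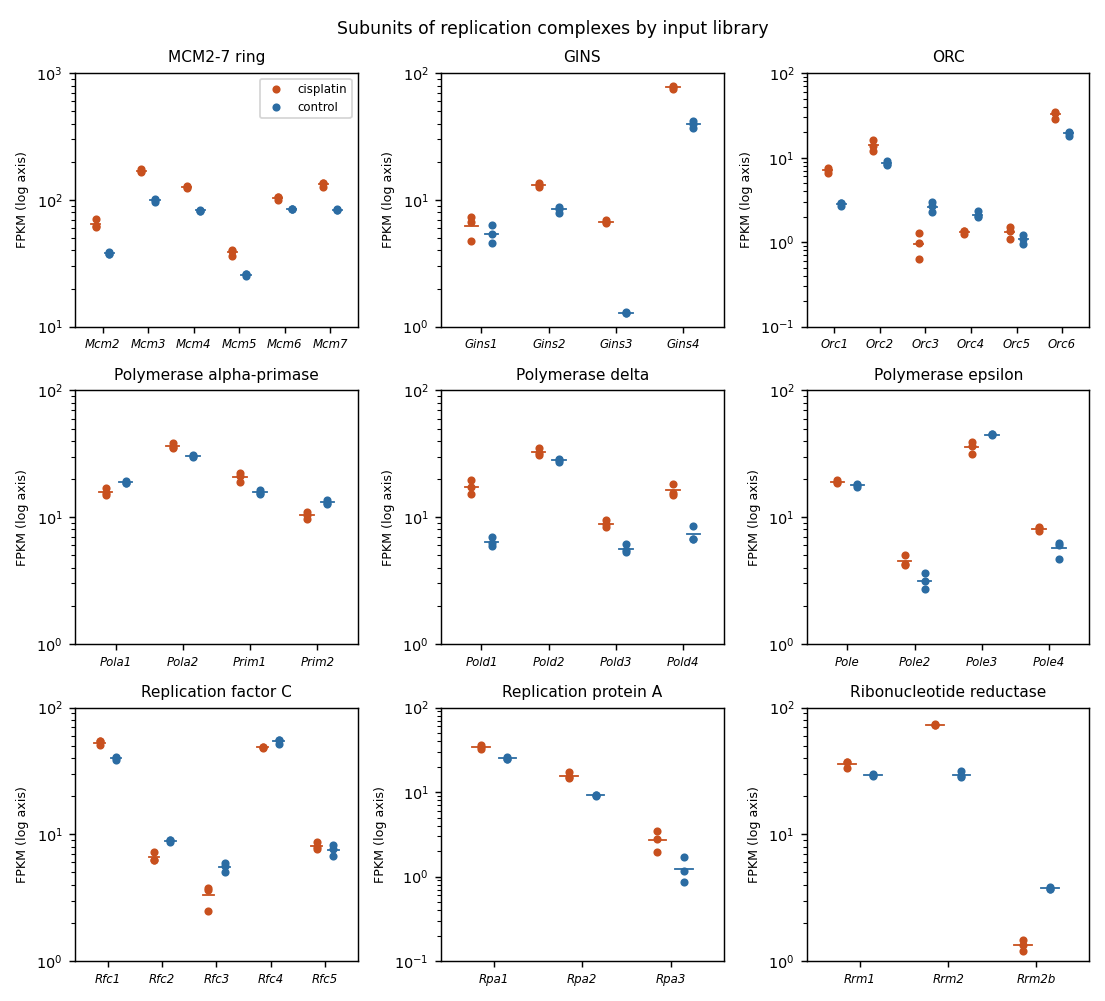
Level of each subunit of 9 replication complexes in the 3 cisplatin (red) and 3 control (blue) input libraries, in FPKM on log axes, with a bar at each mean. All subunits of the MCM ring lie higher with cisplatin, while Orc3, Orc4, Pola1, Prim2, Pole3, Rfc2, Rfc3, Rfc4 and Rrm2b lie lower with cisplatin than in controls.

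Polymerases and primase were mixed, with 6 of 9 higher, 2 lower and 1 without a call, and a median log2 change of 0.25. Their sum was 166 ± 3.39 FPKM with cisplatin and 139 ± 0.959 FPKM in controls, a ratio of 1.19. Pold1, the catalytic subunit of the lagging-strand polymerase delta, had 17.2, 19.8 and 15.3 FPKM in cisplatin libraries against 6.24, 6.95 and 5.97 FPKM in control libraries. It rose 2.73-fold (log2 change 1.31 ± 0.10, adjusted p = 9.06e-06), while its partner Pold2 rose 1.16-fold and did not pass with quantile normalization or rescaling (adjusted p = 0.0938 and 0.113). The ratio of Pold2 to Pold1 was 1.88 ± 0.122 with cisplatin and 4.43 ± 0.417 in controls. The accessory subunits Pold3 and Pold4 rose 1.57-fold and 2.22-fold.

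The polymerase that makes primers split by subunit. Its catalytic subunit Pola1 had 15.6, 14.8 and 16.9 FPKM in cisplatin libraries against 18.7, 19.2 and 18.7 FPKM in control libraries, and the large primase subunit Prim2 had 11.04, 10.3 and 9.68 FPKM against 13.7, 12.7 and 12.9 FPKM. Both fell with no overlap of the groups (log2 change -0.24 ± 0.05 with adjusted p = 0.00305, and -0.31 ± 0.06 with adjusted p = 0.00149). The regulatory subunit Pola2 rose 1.20-fold and the catalytic primase subunit Prim1 rose 1.32-fold. Pole, the catalytic subunit of the leading-strand polymerase epsilon, had 18.8, 19.5 and 18.7 FPKM with cisplatin and 17.9, 18.2 and 17.4 FPKM in controls. These values did not overlap, but the difference did not pass the test (adjusted p = 0.0641, and 0.0484 without cisplatin replicate 3). Of the other subunits, Pole2 and Pole4 rose 1.43-fold each and Pole3, a histone-fold subunit, fell to 35.7 ± 4.04 FPKM against 44.7 ± 0.529 FPKM in controls.

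The clamp, loader and single-strand binding genes had the smallest median change, 0.15. Of the 9, 5 were higher (55.6%), 3 lower (33.3%) and 1 without a call. Among all tested genes the shares were 40.1% higher and 41.1% lower. Pcna, the ring that tethers polymerases to DNA, had 67.8, 64.6 and 70.4 FPKM in cisplatin libraries and 60.5, 60.2 and 61.2 FPKM in control libraries, a rise of 1.11-fold (adjusted p = 0.00653) that did not pass after rescaling every library to the same FPKM total (adjusted p = 0.182) and was -0.0069 on the log2 scale with quantile normalization. Replication factor C, the ATPase that opens the clamp, diverged by subunit. Its large subunit Rfc1 rose 1.33-fold, to 53.1 ± 1.93 FPKM with cisplatin against 39.8 ± 1.00 FPKM in controls. The small subunits Rfc2, Rfc3 and Rfc4 fell, and Rfc5 had 8.09 ± 0.545 FPKM against 7.56 ± 0.740 FPKM and did not pass. Rfc3 had 3.67, 2.49 and 3.74 FPKM in cisplatin libraries against 5.00, 5.89 and 5.65 FPKM in control libraries, the lowest value of either group being cisplatin replicate 2 (log2 change -0.61 ± 0.13, adjusted p = 0.00282). The subunit of highest FPKM was accordingly Rfc1 with cisplatin, above Rfc4 at 48.8 ± 0.666 FPKM, and Rfc4 in controls, at 54.2 ± 2.20 FPKM. This order depends on the gene lengths used for FPKM, which the sources used here do not give.

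All 3 subunits of replication protein A, which coats single-stranded DNA at forks, rose. Rpa2 had 14.7, 17.2 and 14.9 FPKM with cisplatin against 9.23, 9.25 and 9.09 FPKM in controls, and Rpa1 rose 1.37-fold. Rpa3 had 3.48, 1.96 and 2.75 FPKM with cisplatin against 1.71, 1.15 and 0.854 FPKM in controls, a rise of 2.20-fold (adjusted p = 0.00754). Its mean was the lowest of the 45 in both groups, though not clear of the spread of Rfc3 with cisplatin or of Gins3 in controls. These levels rested on 96, 68 and 69 fragments in cisplatin libraries and 44, 30 and 21 in control libraries.

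**Figure D4:**
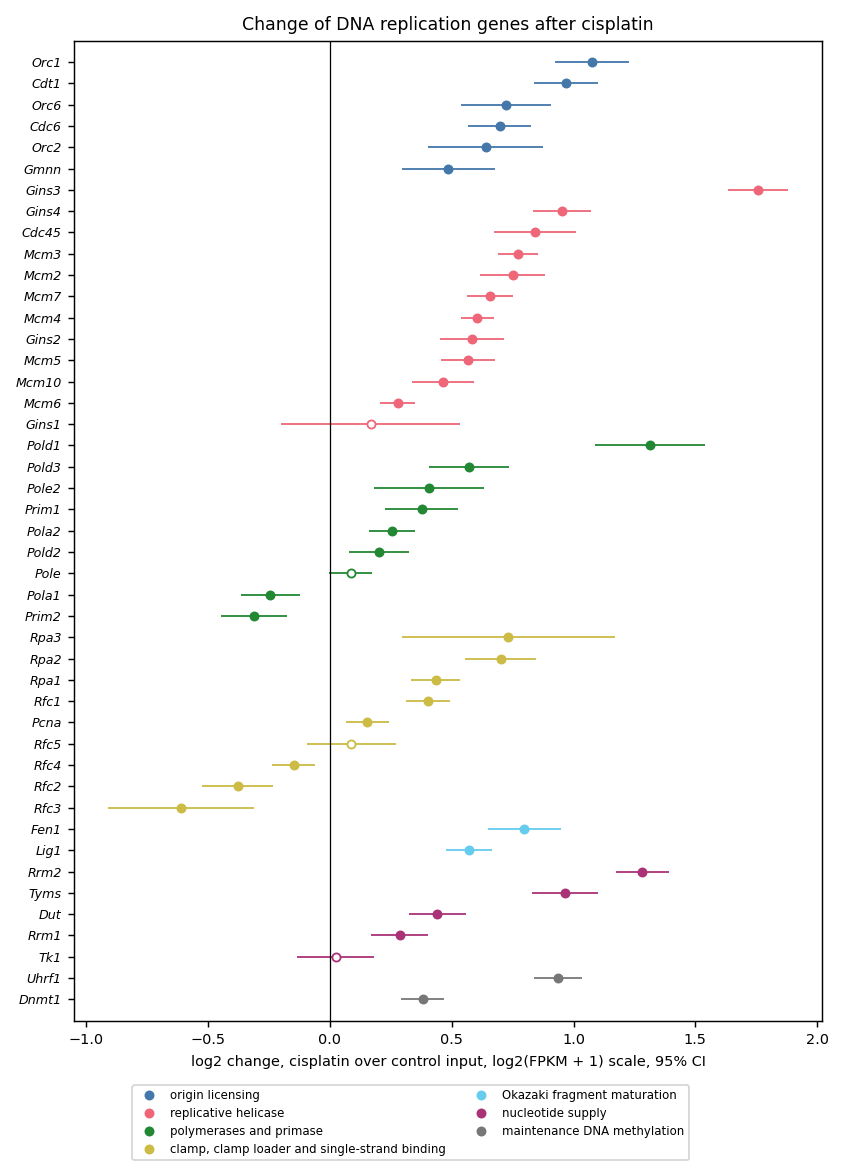
Log2 change of each replication gene, cisplatin over control input, on the log2(FPKM + 1) scale with its 95% interval from limma (n = 3 each), coloured by role. Filled points passed an adjusted p of 0.05 and open points did not. Licensing and helicase genes lie right of 0, Gins1 with an interval that spans it, and polymerase and clamp loader genes lie on both sides.

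Both genes of Okazaki fragment maturation rose. Fen1, the nuclease that removes the displaced primer flap, had 79.3, 83.0 and 70.1 FPKM in cisplatin libraries against 42.8, 45.6 and 43.7 FPKM in control libraries, a rise of 1.76-fold (adjusted p = 1.49e-05). Lig1, the ligase that seals the nick, rose as well (log2 change 0.57 ± 0.04, adjusted p = 7.63e-06). Both genes that maintain DNA methylation behind the fork rose too. Uhrf1, which recognises hemimethylated DNA, had 118, 119 and 109 FPKM with cisplatin and 59.7, 60.8 and 58.4 FPKM in controls, a rise of 1.93-fold (adjusted p = 9.48e-07), and the methyltransferase Dnmt1 rose 1.31-fold.

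Of the nucleotide supply genes 4 of 5 rose, with a median log2 change of 0.44. Rrm2, the small subunit of ribonucleotide reductase whose level cycles with S phase, had 72.5, 74.8 and 72.5 FPKM in cisplatin libraries and 31.6, 28.3 and 28.8 FPKM in control libraries (log2 change 1.28 ± 0.05, adjusted p = 4.3e-07). The large subunit Rrm1 rose only 1.23-fold, so that the FPKM ratio of Rrm2 to Rrm1 was 2.04 ± 0.172 with cisplatin and 1.01 ± 0.0639 in controls. In fragments Rrm1 was above Rrm2, with 9994 against 4881 in cisplatin replicate 1 and 7284 against 1978 in control replicate 1. The ratio thus depends on the gene lengths used for FPKM, and only its change between groups is free of them. Rrm2b, the alternative small subunit known as a p53 target, had 1.33, 1.20 and 1.46 FPKM with cisplatin against 3.74, 3.72 and 3.86 FPKM in controls and fell (adjusted p = 3.75e-06). The ratio of Rrm2 to Rrm2b was 55.6 ± 6.46 in cisplatin and 7.84 ± 0.543 in control libraries. Tyms, which makes thymidylate, rose 2.17-fold, and Dut, which removes dUTP, rose 1.36-fold to 159 ± 9.90 FPKM with cisplatin against 117 ± 2.93 FPKM in controls. Tk1, the salvage thymidine kinase, had 9.88, 8.29 and 9.23 FPKM with cisplatin and 9.06, 9.21 and 8.57 FPKM in controls, with overlapping groups and an interval of its log2 change from -0.13 to 0.18. The sign of its change turned under several alternatives.

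Of 42 further genes that act at replication forks and origins, 27 rose (64.3%), 9 fell (21.4%) and 6 did not pass. Among all tested genes 40.1% rose and 41.1% fell. The median log2 change of the 42 was 0.40. The 4 with the smallest adjusted p were Tipin, Chaf1a, Ccne1 and Slbp. Tipin is a fork protection factor and Chaf1a a chaperone that deposits histones behind the fork. Ccne1 is a cyclin, and Slbp binds histone mRNA. Tipin had 46.1, 44.1 and 48.9 FPKM in cisplatin libraries against 13.8, 13.3 and 12.98 FPKM in control libraries, a rise of 3.48-fold (adjusted p = 1.51e-07). Ccne1 had 9.03, 10.8 and 9.73 FPKM with cisplatin and 1.03, 1.18 and 1.04 FPKM in controls, or 9.08-fold more. Chaf1a rose 2.21-fold and Slbp rose 2.50-fold.

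The 9 that fell were Asf1a, Cdc7, Chtf8, Rnaseh2a, Orc3, Orc4, Mcmbp, Pole3 and Top2a. Cdc7, the kinase that fires licensed origins, had 0.639, 0.391 and 0.672 FPKM in cisplatin libraries against 2.34, 2.69 and 2.54 FPKM in control libraries (log2 change -1.17 ± 0.09, adjusted p = 1.1e-05), while its activator Dbf4 rose 1.10-fold. The histone chaperone Asf1a had 0.611, 0.225 and 0.424 FPKM with cisplatin against 3.38, 3.27 and 3.37 FPKM in controls. Both genes were under 1 FPKM in every cisplatin library.

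Of 26 further genes of nucleotide synthesis 25 were tested, of which 17 rose (68.0%), 7 fell (28.0%) and Shmt2 did not pass. These shares compare with 40.1% and 41.1% of all tested genes. The median log2 change of the 25 was 0.54. Gart, a trifunctional enzyme of purine synthesis, had 43.8, 42.9 and 41.9 FPKM in cisplatin libraries against 18.3, 17.8 and 18.0 FPKM in control libraries (adjusted p = 1.5e-07), Impdh2, which commits IMP to guanine nucleotides, rose 2.39-fold, and the serine hydroxymethyltransferase Shmt1 rose 2.79-fold. The nucleoside diphosphate kinase Nme2 had 8.22, 8.14 and 6.97 FPKM with cisplatin and 0, 0.0746 and 0 FPKM in controls, where the value above 0 is 2 fragments. Its neighbour and close copy Nme1 had 3.93 ± 0.153 FPKM against 1.29 ± 0.127 FPKM, and the sources used here do not say how reads were shared between these copies. Those that fell included Rrm2b, Ctps2, Dguok, Gmps, Mthfd2 and Dctpp1.

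The acetylation data consisted of the authors' deposited table of ac4C peaks, whose enrichments, differences and adjusted p-values are the authors' own. The table has 1 comparison of all libraries, no value per library, and no statement of which treatment a positive difference favours, so differences are given by sign only. Of its 19049 peaks, 109 were assigned to 39 of the 45 replication genes. Among these, 4 peaks, of Gins2, Mcm10, Rfc2 and Rfc5, lay outside the RefSeq span of their gene. No peak was listed for Dut, Gins4, Pold3, Pole2, Prim1 or Rpa3. The genes without a peak included abundant ones, as Dut belonged to the genes at 100 FPKM or more, of which 88.2% had a peak, and Gins4 to those from 30 to 100 FPKM, of which 86.9% had one. Pole had the most peaks, 8.

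Of the 109 peaks 66 passed the authors' adjusted p of 0.05, 59 with a positive and 7 with a negative difference. Over all peaks 36.5% passed with a positive and 9.62% with a negative difference, and the members' 60.6% compares with 46.2% of all peaks. This share moved with expression: peaks passed more often in genes of higher level, and the replication genes with peaks were more abundant, with a median over their peaks of 32.1 FPKM against 11.5 FPKM. Within genes under 10 FPKM, 40.0% of the replication peaks passed (6 of 15) against 28.4% of all. From 10 to 30 FPKM the shares were 54.1% against 54.9%, from 30 to 100 FPKM 67.4% against 71.7%, and from 100 FPKM 78.6% against 84.8%. At least 1 peak passed in 27 of the 39 genes, where 56.1% of all genes with a peak had one. This count moved with level too. It was 4 of 8 replication genes against 1749 of 4511 genes under 10 FPKM, and 9 of 13 against 1757 of 2255 from 10 to 30 FPKM. From 30 to 100 FPKM it was 10 of 14 against 946 of 1038, and from 100 FPKM 4 of 4 against 304 of 317. The passing peaks were of positive difference alone in 20 genes, negative alone in Gins1 and Rfc4, and of both signs in Mcm4, Mcm10, Rfc1, Uhrf1 and Dnmt1.

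By role, 25 of 30 helicase peaks passed, 16 of 23 in the clamp, loader and single-strand binding group, 6 of 8 in Okazaki genes, 6 of 9 in methylation genes, 4 of 10 in nucleotide supply, 6 of 18 in polymerases and primase, and 3 of 11 in licensing genes. These groups differ in level, with a median over peaks of 41.8 FPKM for the helicase and 11.4 FPKM for licensing, and the difference between them was not tested. By position, 44 of 57 peaks annotated to coding sequence passed (77.2%), against 9 of 25 in 3′ untranslated regions (36.0%). All peaks gave 56.0% and 36.2%. Level differed here too, with a median of 32.1 FPKM over these coding peaks against 13.2 FPKM over all coding peaks. It was 17.3 FPKM over the 3′ untranslated peaks of the replication genes and 11.3 FPKM over all such peaks. The difference by position was not tested.

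The largest passing differences of the helicase were in Mcm10 and Mcm7. In Mcm10 a coding peak at chr2:5000946-5001273 (mm10, as for all peaks) had a log2 difference of -5.75 and the next at chr2:5004971-5005210 one of 5.60. Mcm7 had 5.54 at chr5:138164912-138165342, in coding sequence. The lowest adjusted p of the 109 was in Mcm6, where a coding peak at chr1:128343483-128351518 had a difference of 2.93 and a log10 adjusted p of -215. Peak ends are outer ends, which can include introns.

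Uhrf1 held the most negative difference of the 109. Its peak at chr17:56322616-56322796, in the 3′ untranslated region, had a log2 difference of -7.81 and a log10 adjusted p of -73.8, with an enrichment of 5.31 over input. The next peak begins after a gap of 89 bases and had a difference of 2.35 that did not pass, and the one after it, chr17:56323306-56323486, had 3.49 and passed with a log10 adjusted p of -1.44. In Dnmt1 a coding peak at chr9:20917412-20918484 had 3.33.

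In the clamp group the largest passing differences were 6.11 in the 3′ untranslated region of Rpa2 at chr4:132777884-132778213, 5.06 in coding sequence of Rfc2 at chr5:134590952-134591332 and 4.40 in coding sequence of Rfc1 at chr5:65272191-65272699. The RNA of Rfc2 fell in input. Among polymerases, Pola2 had 6.10 at chr19:5943594-5951180, Pole had 5.40 at chr5:110289299-110291054 and Pola1, whose RNA fell, had 4.51 at chrX:93578080-93580745, all in coding sequence.

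Licensing genes had 4.69 in coding sequence of Cdc6 at chr11:98908825-98910705, and 4.38 and 2.21 in exons of Cdt1 at chr8:122572717-122573046 and chr8:122569428-122570215. Fen1 had 5.68 in its 3′ untranslated region at chr19:10199311-10199461 and 4.55 in coding sequence at chr19:10200716-10200895, and Lig1 had 5.31 in an exon at chr7:13280153-13285366. In nucleotide supply, Tk1, whose RNA did not pass the test in input, had 5.64 at chr11:117824167-117824466 and 4.32 at chr11:117823331-117823659, both in exons and both near the threshold, with log10 adjusted p of -1.41 and -1.36. The first of them had an enrichment of 94.0 over input, the highest of the 109 peaks. Rrm2 had 2.45 in coding sequence at chr12:24708915-24709093.

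**Figure D5:**
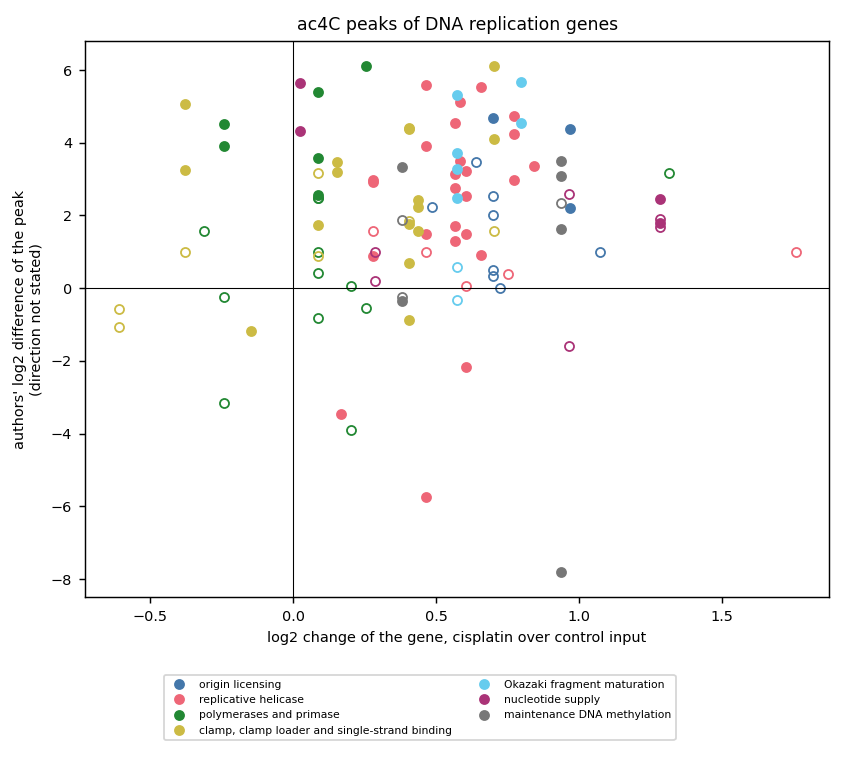
The authors' log2 difference of each of the 109 ac4C peaks, whose direction is not stated, against the log2 change of its gene in input RNA, cisplatin over control, coloured by role. Filled points passed the authors' adjusted p of 0.05 and open points did not. Most filled points lie above 0, also for genes with little change in input such as Tk1 and Pole, and the lowest point is the Uhrf1 peak at -7.81.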

How the data were processed

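Total RNA was depleted of ribosomal RNA, fragmented and split into input and anti-ac4C fractions, and read from strand-specific paired-end libraries, per the labels' protocols. Tools in the submitters' processing notes are HISAT2, HOMER, fastp and FastQC, with the build mm10. The sources used here do not give the counting annotation, strand setting or peak caller, so reads of a gene and an antisense partner cannot be told apart. The authors deposited FPKM values of 6 input libraries, and a log2 fold change with its p-value per gene. Per the file headers, the deposited peak table gives each peak's fold enrichment as a ratio, a log2 difference, and log10 p-values, used here as scores. Values per IP library were not analysed here.

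A gene was tested if 3 or more input libraries had 1 FPKM or above. The test was limma 3.58.1 (R 4.3.3) on log2(FPKM + 1), a pseudocount of 1, with Benjamini-Hochberg adjustment over all tested genes, 3 cisplatin against 3 control libraries. Fold changes on that scale understate those of low genes, so ratios of mean FPKM are given too. FPKM values of all 14852 genes were whole multiples of 1 fragment within 0.0001, which gave the depth, and limma's voom on these fragments was an alternative. Other alternatives were the pseudocount, the filter, rescaling, quantile normalization, a replicate block and leaving out each library. Replicate numbers were checked and did not pair the libraries (correlations of deviations 0.097, -0.116 and 0.043). The fit was tested on simulated data. All members, 2 further lists (the 4 genes of smallest adjusted p and those against the majority) and, per role, up to 3 passing peaks of largest difference were named; others were chosen after their values were seen. A gene of the further lists that the rule would name is not reported here. The members and lists were chosen with earlier results of these data known. Promoter windows came from RefSeq.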

Additional observations from a re-analysis of the deposited data

How the results depend on the processing

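The number of replication genes that rose was 33 to 38 under all alternatives, and 5 fell in each. The median log2 change of the 45 was 0.41 with quantile normalization and 0.47 after rescaling to a common sum, and 0.522 to 0.554 when single libraries were left out. Rescaling moved the median of all tested genes to -0.087 and voom to -0.064. The replicate block left 36 higher and 5 lower. Of the further replication genes 5 fell with a filter of 5 FPKM, which tests fewer of them, and 4 peaks were negative at the authors' adjusted p of 0.01. The genes with changes near 0 turned sign: Pole (-0.0094), Rfc5 (-0.0010) and Tk1 (-0.0657) after rescaling, Pcna (-0.0069) with quantile normalization, and Tk1 with voom (-0.0446), without cisplatin replicate 1 (-0.0284) and without control replicate 3 (-0.0033), within a range of -0.0284 to 0.0855 over single libraries left out. Mcm6 (adjusted p = 0.0943) and Pold2 (0.0938) did not pass in limma with quantile normalization, nor did Pold2 (0.113) and Pcna (0.182) after rescaling. Without cisplatin replicate 3, Gins1 (0.0432) and Pole (0.0484) passed. The causes were not tested.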

Other observations

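The levels of the 45 genes spanned a wide range in both groups. Mcm3, at 170.1 FPKM, and Dut, at 159 FPKM, had the highest FPKM in cisplatin libraries. Their order there could not be told from the spread of libraries. In control libraries Dut, at 117 FPKM, was above Mcm3, at 99.2 FPKM, with no overlap of their values. Of the 44 neighbouring pairs in the order of levels, 13 were clear of each other in cisplatin and 19 in control libraries.

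The CCAAT box, searched on both strands as CCAAT, was found in 60.9% of the 46 promoter windows of replication genes and in 38.0% of those of tested genes. All 9 windows of helicase genes, from 8 genes, held it, and none of the 5 windows of Okazaki fragment genes, from 2 genes, did.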
